A study of Mus musculus with 6 samples.

Results

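Immediate early genes are switched on within minutes of a stimulus, without new protein synthesis. The 10 described here were Fos, Fosb, Jun, Junb, Jund, Egr1, Ier2, Btg2, Atf3 and Nr4a1, chosen by their symbols among the 18204 genes of a single-cell count table of mouse hypothalamus. The table came from Drop-seq, in which single cells are caught in droplets with barcoded beads and transcripts are read from their 3′ ends. Each counted molecule carries its own identifier (UMI), so that 1 UMI stands for 1 captured transcript. There were 3 IDOL KO libraries (KO1, KO2 and KO3) and 3 WT libraries (WT1, WT2 and WT3), all from hypothalamus of C57BL/6J mice aged 8 weeks, and the labels gave no treatment. IDOL is a ubiquitin ligase, encoded by Mylip, that marks lipoprotein receptors for breakdown. The libraries were made on 2 days with the genotypes mixed, but the day of each library, the deleted part of Mylip and the number of animals behind a library were not given. The p-values below therefore measure the spread between libraries, which may be technical.

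As background, most of these genes encode transcription factors that sit at the end of the ERK, p38 and cAMP pathways. Their promoters are held ready by SRF and its partners and by CREB, and their transcripts decay fast. Fos and Fosb proteins pair with Jun, Junb or Jund through leucine zippers to form AP-1, which binds enhancers of later response genes. Egr1 is a zinc finger factor, Nr4a1 is an orphan nuclear receptor, and Atf3 is a stress-induced leucine zipper factor that often acts as a repressor. Btg2 is an antiproliferative protein that speeds the removal of poly(A) tails, and Ier2 is a short nuclear protein induced together with Fos. In the hypothalamus Fos is widely used as a mark of recently active neurons. Enzymatic dissociation of tissue is also known to induce the whole group in many cell types. Every library was made from dissociated cells, so transcripts present in the tissue and transcripts made during dissociation cannot be told apart here.

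The 250 bases before the RefSeq start site (GRCm38.p6) are printed for 4 of the 8 members found in the RefSeq promoter table, to set the pair Fos and Fosb, whose levels were alike over the classes, beside Atf3 and Btg2, which were high in some Fos-rich classes and low in others. The sequences run 5′ to 3′ on the strand of the gene, and capitals mark TGACG or its complement CGTCA, the core of the site that CREB and ATF proteins bind.
Fos, chr12:85473640-85473889, plus strand: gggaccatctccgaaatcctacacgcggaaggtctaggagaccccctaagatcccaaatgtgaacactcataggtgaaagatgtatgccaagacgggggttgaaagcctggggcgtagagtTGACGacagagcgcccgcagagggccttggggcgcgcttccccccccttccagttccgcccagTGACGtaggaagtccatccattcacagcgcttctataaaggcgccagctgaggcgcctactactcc
Fosb, chr7:19310046-19310295, minus strand: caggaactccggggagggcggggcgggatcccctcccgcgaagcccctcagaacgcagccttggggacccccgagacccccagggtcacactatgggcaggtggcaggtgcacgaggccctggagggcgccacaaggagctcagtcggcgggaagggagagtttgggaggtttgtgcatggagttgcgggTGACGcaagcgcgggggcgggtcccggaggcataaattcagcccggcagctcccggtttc
Btg2, chr1:134079156-134079405, minus strand: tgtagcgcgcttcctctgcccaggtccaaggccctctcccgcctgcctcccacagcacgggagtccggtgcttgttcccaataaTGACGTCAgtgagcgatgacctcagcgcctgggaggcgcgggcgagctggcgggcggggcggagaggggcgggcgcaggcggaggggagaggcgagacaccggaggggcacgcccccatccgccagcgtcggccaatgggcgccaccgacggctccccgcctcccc
Atf3, chr1:191183334-191183583, minus strand: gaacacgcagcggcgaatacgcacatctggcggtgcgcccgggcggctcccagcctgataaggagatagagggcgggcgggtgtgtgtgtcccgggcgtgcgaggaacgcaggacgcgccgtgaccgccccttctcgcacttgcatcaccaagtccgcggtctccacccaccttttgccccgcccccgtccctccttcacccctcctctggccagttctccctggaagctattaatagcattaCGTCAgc

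Counted from the start site, TGACG or its complement began at -129 and -66 in Fos, at -60 in Fosb, at -166 and -163 in Btg2 and at -7 in Atf3. The 2 Btg2 matches overlap and make up the palindrome TGACGTCA, which 1.546% of 32851 RefSeq promoters of this length hold on either strand. The shorter TGACG was found in 6 of the 8 members, against 17.77% of all promoters when both strands were searched. TATAAA on the gene's strand was found in Fos alone of the 8, against 7.592% of all promoters, and the CArG box, the letters that SRF binds, in none of the 8, against 1.467%. A match of letters is a description and does not show that a factor was bound. Both Fos-rich and Fos-poor classes share these letters, and no sequence was compared with the levels below.

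All 10 genes lie on the GRCm38 build at the following places in GENCODE M21, each as a protein-coding gene. Btg2 is at chr1:134075170-134079120 on the minus strand. Atf3 is at chr1:191170296-191218039 on the minus strand. Jun is at chr4:95049034-95052222 on the minus strand, and Fosb is at chr7:19302696-19310051 on the minus strand. Chromosome 8 carries Jund at chr8:70698949-70700616 on the plus strand, Ier2 at chr8:84661331-84662852 on the minus strand and Junb at chr8:84974484-84978718 on the minus strand. Fos is at chr12:85473890-85477273, Nr4a1 at chr15:101254269-101274795 and Egr1 at chr18:34859823-34864984, all on the plus strand. Another gene overlaps Atf3 (Gm24748), Jun (Junos), Jund (Gm11175) and Junb (Prdx2) on the opposite strand. Whether the counting used strand is not given in the sources used here, so UMIs of these overlapping pairs cannot be told apart.

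The table held 13994 barcodes, of which 9333 cells were kept after filters on genes per cell, mitochondrial share and doublets, 1036 to 1946 per library. The kept cells carried 1514439 to 3644549 UMIs per library, with a median of 804 to 1017 UMIs per cell. No barcode among the kept cells occurred in more than 1 library. Cells were grouped without the 10 genes and 80 related stress and early response genes, and groups were named only from cell type markers, so each name stands for cells that are like that type. Mylip itself, the check of the labels, was found with 2, 0 and 0 UMIs in KO1, KO2 and KO3, against 68, 27 and 43 UMIs in WT1, WT2 and WT3. A count of 0 allowed up to 1.09 CPM (counts-per-million, the UMIs of a gene scaled to the total of the library or class) in KO2 and 1.10 CPM in KO3, at 3 UMIs per library, a limit that covers counting error only.

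Of the cell classes, 8 had at least 20 cells in every library and entered the tests. They were microglia (391 cells), tanycytes (358), endothelial cells (984), oligodendrocyte precursors (OPC, 592), a Vip-led cluster (461), oligodendrocytes (1268), astrocytes (1641) and neurons (2669). The Vip-led cluster was led by Scg2, Vip, Chga and Dlk1. It carried 11 or 12 of the 12 neuron markers in every library. Their sum was 25029 to 33339 CPM, against 25501 to 30386 CPM in neurons. Neurons were the only type whose markers reached the naming limits there. Of the pituitary marker list, Cga and Chgb stood among its leading genes, but Chgb also stood among those of a neuron cluster of 1301 cells. The cluster was kept apart from neurons under the name of Vip and was given no cell type name. Neurons had the deepest cells, with a median of 1496 UMIs, and microglia the shallowest, with 608, so levels below are CPM of a class's UMIs and shares are given at a matched depth. Each class carried its own markers in every library. The summed microglia markers, for example, were at 41020 to 48442 CPM in microglia, against 40.3 to 84.5 CPM in neurons. Red blood cell markers in microglia summed to 13254 CPM in KO2 and 10288 CPM in KO3, against 58.6 to 156 CPM in the other 4 libraries. The summed level of the 10 genes in microglia of KO2 and KO3, 24521 and 27735 CPM, lay within the 21789 to 30408 CPM of the other 4.

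Among the 8 tested classes, microglia, the resident macrophages of the brain, carried the highest mean level of 9 of the 10 genes. Summed over the 10 genes, microglia averaged 26364 ± 3375 CPM (SD, n = 6 libraries, as for the other averages over classes). Tanycytes, the ventricle-lining cells that send processes into the hypothalamus, averaged 14565 ± 3642 CPM. Endothelial cells averaged 12499 ± 2000 CPM and OPC 12284 ± 2306 CPM. No library of these 4 classes overlapped with those of the other 4 tested classes. The Vip-led cluster averaged 5879 ± 1320 CPM, oligodendrocytes 2479 ± 889 CPM, astrocytes 903 ± 310 CPM and neurons 1700 ± 481 CPM. On average the summed level was thus lower in neurons, which leave out the Vip-led cluster, than in every other tested class but astrocytes.

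**Figure D1:**
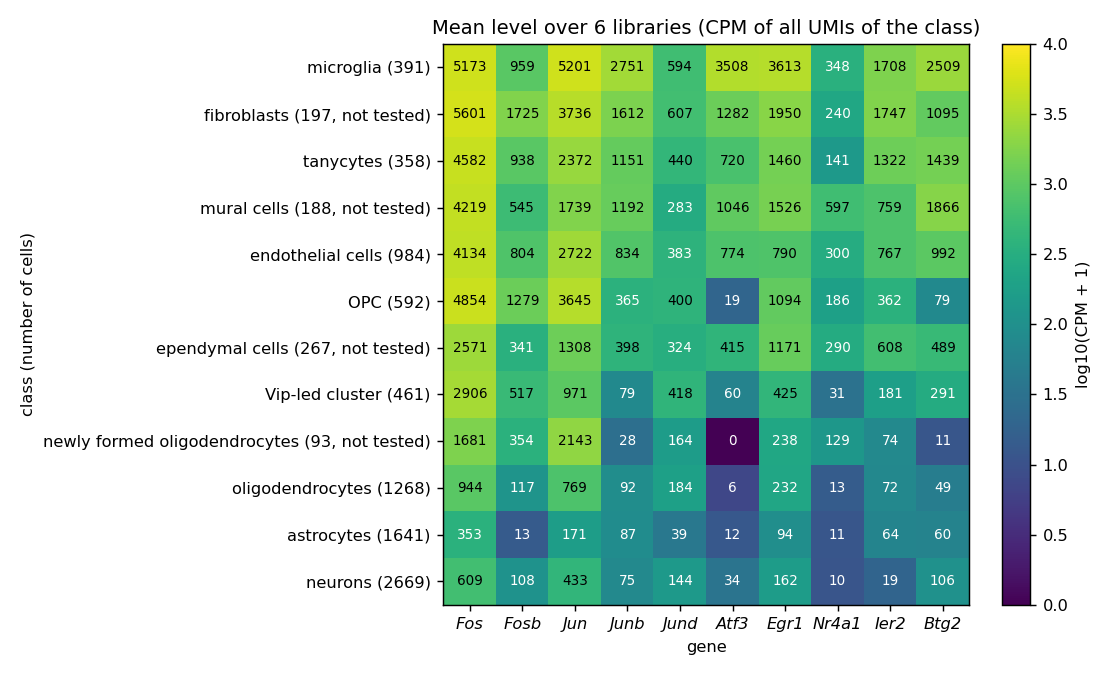
Mean level of each gene in 12 cell classes, as a heat map on a log scale of CPM (mean of up to 6 libraries), with classes down the page and genes across. The microglia row is high for every gene, while the Atf3 and Btg2 columns are low in OPC, where Fos, Fosb and Jun are high.

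Fos, the AP-1 subunit that marks recently active neurons, was carried at similar levels by microglia, OPC, tanycytes and endothelial cells. Microglia had 4440, 4820 and 5152 CPM in KO1, KO2 and KO3, against 4028, 6424 and 6177 CPM in WT1, WT2 and WT3. OPC had 4545, 5550 and 3889 CPM in the KO libraries, against 3479, 4741 and 6924 CPM in the WT libraries. Tanycytes and endothelial cells lay in the same span, at 3453 to 6095 CPM and 3213 to 5028 CPM. The Vip-led cluster had 2754, 2548 and 4103 CPM in the KO libraries, against 2341, 2453 and 3237 CPM in the WT libraries, a span that overlapped with that of endothelial cells. Oligodendrocytes had 511 to 1435 CPM, astrocytes 152 to 458 CPM, and neurons 410 to 940 CPM. No neuron library reached the lowest library of the Vip-led cluster, whereas astrocytes and oligodendrocytes overlapped with neurons.

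Fosb, another Fos family subunit, was the exception to the lead of microglia among the tested classes. In OPC it stood at 1359, 1362 and 1773 CPM in the KO libraries, against 844, 1020 and 1317 CPM in the WT libraries. Microglia followed with 959 ± 274 CPM, tanycytes with 938 ± 222 CPM and endothelial cells with 804 ± 272 CPM. Fosb averaged 517 ± 243 CPM in the Vip-led cluster, 117 ± 48.5 CPM in oligodendrocytes and 108 ± 58.8 CPM in neurons. Astrocytes carried hardly any, with 13.3 ± 8.80 CPM, although their Fos level overlapped with that of neurons.

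Jun, the AP-1 partner that gives the most active dimers with Fos, was led by the same 4 classes. It averaged 5201 ± 1117 CPM in microglia, 3645 ± 611 CPM in OPC, 2722 ± 733 CPM in endothelial cells and 2372 ± 725 CPM in tanycytes. The Vip-led cluster had 971 ± 333 CPM and oligodendrocytes 769 ± 329 CPM. Astrocytes had 171 ± 38.1 CPM and neurons 433 ± 92.7 CPM. The lowest library of any of the 4 leading classes was 1304 CPM, in KO3 tanycytes, against at most 569 CPM in neurons.

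Junb, a Jun family member that is a weaker activator than Jun, set microglia and OPC apart. Microglia had 1595, 1924 and 3751 CPM in the KO libraries, against 2651, 3341 and 3245 CPM in the WT libraries. Tanycytes followed with 1151 ± 438 CPM and endothelial cells with 834 ± 211 CPM, while OPC had 365 ± 135 CPM. In the Vip-led cluster Junb was at 79.5 ± 42.0 CPM, close to the 74.7 ± 28.2 CPM of neurons, although Fos in that cluster exceeded the neuron level in every library. Per 100 Fos UMIs there were 53.2 Junb UMIs in microglia, 2.73 in the Vip-led cluster and 12.3 in neurons.

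Jund, the Jun family member that most cells carry without stimulation, varied least among the Jun genes. It averaged 594 ± 181 CPM in microglia, 440 ± 151 CPM in tanycytes, 418 ± 186 CPM in the Vip-led cluster, 400 ± 96.4 CPM in OPC and 383 ± 95.1 CPM in endothelial cells. Oligodendrocytes had 184 ± 40.2 CPM, astrocytes 39.2 ± 17.4 CPM and neurons 144 ± 39.0 CPM. The ratio of the highest to the lowest class mean was 15.1 for Jund, against 30.5 for Jun and 36.8 for Junb.

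Atf3, the stress-induced repressor, was high in microglia and at or near 0 in several other classes. Microglia had 3721, 4312 and 2973 CPM in KO1, KO2 and KO3, against 3151, 4054 and 2835 CPM in WT1, WT2 and WT3. Endothelial cells averaged 774 ± 297 CPM and tanycytes 720 ± 295 CPM. OPC, whose Fos level was near that of microglia, had 46.9, 10.02 and 31.2 CPM of Atf3 in the KO libraries, against 11.6, 0 and 14.0 CPM in the WT libraries. The 0 in WT2 allowed up to 56.7 CPM. Every microglia library was at least 2835 CPM and every OPC library was at most 46.9 CPM. Oligodendrocytes had 0 to 14.4 CPM, a 0 there allowing up to 12.0 CPM, astrocytes 6.70 to 19.3 CPM and neurons 10.1 to 56.0 CPM. In the Vip-led cluster the level rested on few UMIs, with 32, 0 and 7 in the KO libraries, against 5, 2 and 0 UMIs in the WT libraries, where a 0 allowed up to 23.9 CPM in KO2 and 80.9 CPM in WT3. Per 100 Fos UMIs, Atf3 had 69.7 ± 16.8 UMIs in microglia and 0.425 ± 0.402 in OPC.

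**Figure D2:**
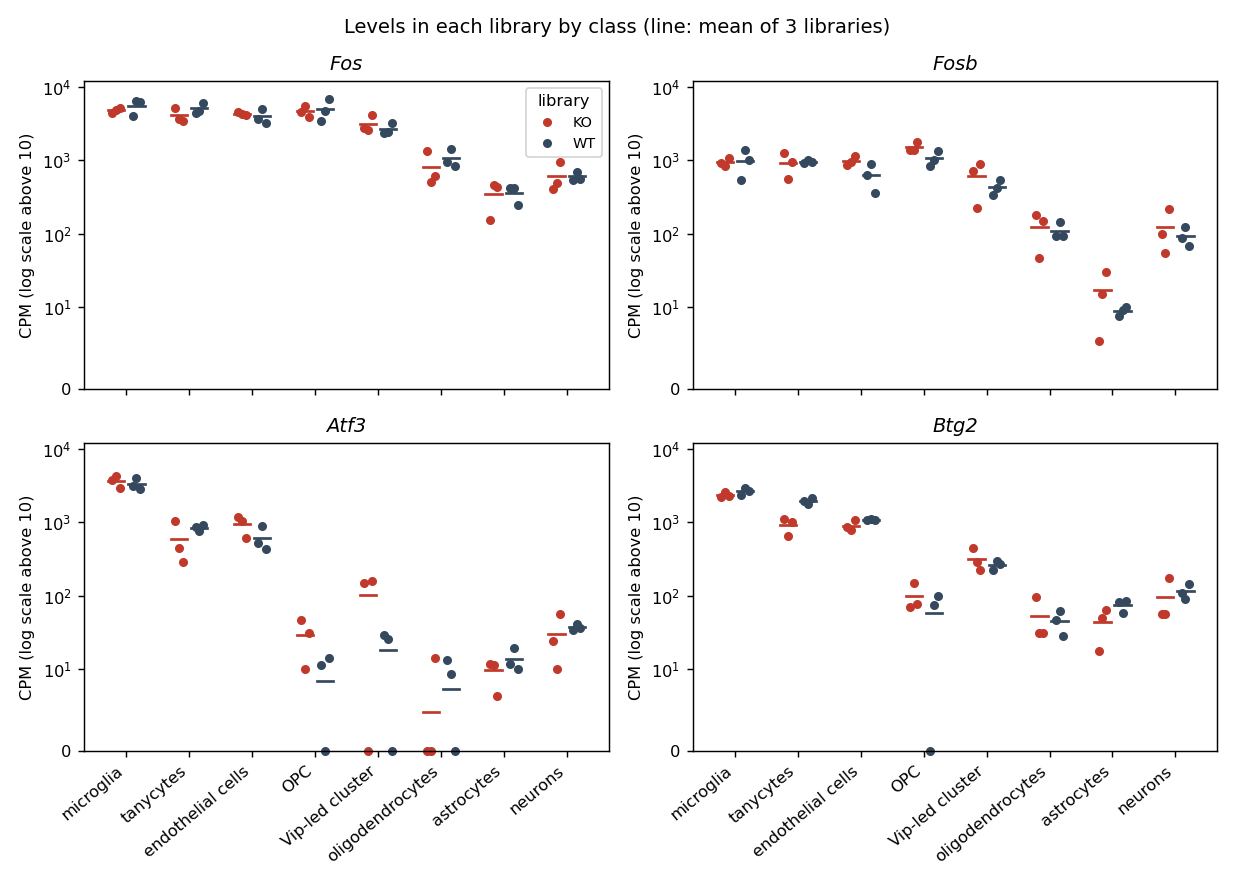
Level of Fos, Fosb, Atf3 and Btg2 in the 8 tested classes, in CPM on a log axis, with 1 point per library (KO left in red, WT right in dark grey) and a line at the mean of 3 libraries. Fos in microglia lies at 4028 to 6424 CPM and Atf3 in OPC at 0 to 46.9 CPM. The KO and WT points overlap except for Btg2 in tanycytes, where all 3 KO points are lower, and Fosb in OPC, where all 3 are higher.

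Btg2, the antiproliferative deadenylation factor, divided the classes much as Atf3 did. Microglia had 2220 to 2912 CPM, with a mean of 2509 ± 266 CPM. Tanycytes had 1439 ± 600 CPM and endothelial cells 992 ± 138 CPM. In OPC it was at 70.3, 150 and 78.1 CPM in the KO libraries, against 0, 75.5 and 98.1 CPM in the WT libraries, where the 0 in WT1 allowed up to 34.7 CPM. The Vip-led cluster carried more, with 291 ± 82.2 CPM. Oligodendrocytes had 48.7 ± 25.9 CPM, astrocytes 59.6 ± 25.1 CPM and neurons 106 ± 48.4 CPM.

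Ier2, the short nuclear protein, had its lowest mean level among the tested classes in neurons. It averaged 1708 ± 418 CPM in microglia, 1322 ± 513 CPM in tanycytes, 767 ± 136 CPM in endothelial cells and 362 ± 111 CPM in OPC. The Vip-led cluster had 181 ± 39.1 CPM, oligodendrocytes 71.6 ± 39.5 CPM and astrocytes 63.9 ± 40.9 CPM. Neurons had 15.4, 16.5 and 26.9 CPM in the KO libraries, against 23.8, 9.63 and 19.0 CPM in the WT libraries. On average astrocytes carried more Ier2 than neurons and less Fos, Fosb and Jun, although KO1 astrocytes, at 5.84 CPM, fell below the neurons.

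Egr1, the zinc finger factor, averaged 3613 ± 678 CPM in microglia, 1460 ± 357 CPM in tanycytes, 1094 ± 245 CPM in OPC and 790 ± 126 CPM in endothelial cells. It was at 425 ± 172 CPM in the Vip-led cluster, 232 ± 78.2 CPM in oligodendrocytes, 93.8 ± 54.3 CPM in astrocytes and 162 ± 56.8 CPM in neurons. Nr4a1, the orphan nuclear receptor, was found at 348 ± 111 CPM in microglia, 300 ± 74.6 CPM in endothelial cells, 186 ± 35.9 CPM in OPC and 141 ± 97.6 CPM in tanycytes. Oligodendrocytes had 13.5 ± 9.89 CPM of Nr4a1, astrocytes 10.6 ± 7.47 CPM and neurons 10.3 ± 3.48 CPM. Both genes placed the OPC mean between those of tanycytes and endothelial cells, unlike Atf3 and Btg2.

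The classes also differed in how many of their cells carried a transcript. When each cell was thinned to 500 UMIs, at least 1 Fos UMI was found in 69.8% of microglia, 65.7% of tanycytes, 65.3% of OPC, 61.5% of the Vip-led cluster and 48.5% of endothelial cells. The share was 20.3% in oligodendrocytes, 8.58% in astrocytes and 18.5% in neurons. Without thinning, the share was 67.3% in microglia, 73.6% in tanycytes, 68.0% in OPC, 75.9% in the Vip-led cluster, 50.6% in endothelial cells, 27.8% in oligodendrocytes, 10.01% in astrocytes and 33.7% in neurons. The Vip-led cluster exceeded endothelial cells in share but not in mean level, so no order is read between them. Atf3 was found at 500 UMIs in 58.7% of microglia, 16.9% of endothelial cells and 14.0% of tanycytes, but in 1.03% of OPC, 0.276% of oligodendrocytes, 0.404% of astrocytes and 1.30% of neurons. Fosb was found in 38.8% of OPC, 0.432% of astrocytes and 4.84% of neurons. Free RNA from broken cells puts UMIs into droplets of every class, and none of the classes is known to lack these genes, so the lowest share of each gene is the nearest measure of that background. The Atf3 shares of astrocytes (0.404% ± 0.464) and OPC (1.03% ± 0.826) held the lowest share, that of oligodendrocytes, within their SD. Background and low expression were therefore not told apart in these 3 classes. Pooled over libraries, Fos was found in 49.4% of Atf3-positive astrocytes, 97.6% of such OPC and 31.9% of such oligodendrocytes. Among all cells of these classes it was found in 8.47%, 65.3% and 19.8%. The shares among Atf3-positive cells rest on very few cells. Pooled, Atf3 was found in 0.324% of 1279 astrocytes, 1.16% of 487 OPC and 0.315% of 1222 oligodendrocytes. No reading is drawn from them. The part of free RNA in the Atf3 shares was not tested.

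Counted per cell, 5.00 ± 0.512 of the 10 genes were found in a microglial cell thinned to 500 UMIs. The count was 3.03 ± 0.399 in tanycytes, 2.65 ± 0.281 in OPC, 2.64 ± 0.456 in endothelial cells and 1.77 ± 0.348 in the Vip-led cluster. It was 0.735 ± 0.183 in oligodendrocytes, 0.275 ± 0.0928 in astrocytes and 0.631 ± 0.152 in neurons. No member was found in 7.61% of microglia, 17.1% of OPC and 19.1% of the Vip-led cluster, against 62.4% of neurons. Without thinning, the 10% of cells with most member UMIs held 30.5% of these UMIs in microglia and 34.9% in OPC. That share was 85.8% in astrocytes, 64.9% in tanycytes and 62.3% in neurons. These unthinned shares also depend on how much depth varies between the cells of a class. Tanycyte sub-clusters, for example, had medians of 694 to 6242 UMIs per cell, and microglial ones 543 to 734. The part of depth in these shares was not tested.

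The difference of each class from neurons was tested within libraries by edgeR's quasi-likelihood test on summed counts, with library as a block, and p-values were adjusted by Benjamini-Hochberg over 6687 genes. All 7 contrasts share the neuron libraries. In microglia 10 of 10 members were higher and none was lower, against 22.6% of all genes called higher and 36.2% called lower. The same count of 10 higher was found in endothelial cells (34.6% of all genes higher, 37.6% lower) and tanycytes (29.2% higher, 31.4% lower). In OPC 8 were higher (25.2% of all genes higher, 30.3% lower), and in the Vip-led cluster 8 were higher (8.55% higher, 17.4% lower), with none lower in either. Oligodendrocytes had 7 higher and 2 lower (31.7% higher, 37.4% lower), and astrocytes 2 higher and 4 lower (32.6% higher, 35.1% lower). The median log2 fold change of the 10 genes over neurons was 4.78 in microglia, where that of all genes was -0.45. It was 3.36 in tanycytes, 3.28 in endothelial cells and 2.74 in OPC, where the median of all genes was -0.06, -0.06 and -0.10. In the Vip-led cluster it was 1.45 (all genes -0.15), in oligodendrocytes 0.83 (all genes -0.11) and in astrocytes -0.36 (all genes -0.06).

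Among the microglial differences from neurons, Atf3 had the largest log2 fold change, 6.96 ± 0.21 (SE, adjusted p = 1.8e-55, edgeR), followed by Ier2 with 6.61 ± 0.21. Jund had the smallest, 2.26 ± 0.18 (adjusted p = 1.73e-21), and Fos stood at 3.31 ± 0.17. Tanycytes ranged from 1.59 for Jund to 5.98 for Ier2, and endothelial cells from 1.56 for Jund to 5.45 for Ier2. In each of these 3 classes the high Ier2 fold is set against 6 to 46 Ier2 UMIs per neuron library.

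OPC were higher than neurons in Ier2, Nr4a1, Fosb, Jun, Fos, Egr1, Junb and Jund. Fosb rose by a log2 fold change of 3.50 ± 0.17 (adjusted p = 1.56e-37, edgeR), Jun by 2.94 ± 0.16 and Fos by 2.86 ± 0.17. The other two, Atf3 (-0.75 ± 0.61, adjusted p = 0.296) and Btg2 (-0.48 ± 0.34, adjusted p = 0.227), did not pass the test. The adjusted p for Btg2 ranged from 0.0135, without KO2, to 0.577 over the alternatives, and for Atf3 from 0.0703 to 0.479.

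In the Vip-led cluster Ier2 (3.07 ± 0.28), Fosb (2.14 ± 0.19), Fos (2.13 ± 0.17), Nr4a1, Btg2, Jund, Egr1 and Jun were higher than in neurons, all with adjusted p at most 0.00491 (edgeR). Junb (0.28 ± 0.33, adjusted p = 0.576) and Atf3 (0.86 ± 0.39, adjusted p = 0.0951) were not called. Both of these values turned negative without KO1, at -0.54 for Junb and -0.38 for Atf3, so their direction rests on that library. The Nr4a1 call also fell away without KO1 (0.60).

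Oligodendrocytes were higher than neurons in Ier2 (2.27 ± 0.27), Jun (1.25 ± 0.15), Fos (1.10 ± 0.17), Egr1, Jund, Junb and Fosb, and lower in Atf3 (-1.68 ± 0.53, adjusted p = 0.00361, edgeR) and Btg2 (-0.65 ± 0.27, adjusted p = 0.0246). The Btg2 call was lost without KO3 (-0.40, adjusted p = 0.190) or WT3 (-0.57, adjusted p = 0.0746), with a range of 1.83e-05 to 0.190 over the alternatives. Without KO1, Fosb (0.33) and Junb (0.45) were no longer called. Nr4a1 was not called (0.81 ± 0.42, adjusted p = 0.078) except without WT1 (1.05). Astrocytes were lower than neurons in Fosb (-2.45 ± 0.35), Jund (-1.31 ± 0.21), Atf3 (-1.14 ± 0.51, adjusted p = 0.0417) and Jun (-0.92 ± 0.18), and higher in Ier2 (2.05 ± 0.29) and Junb (0.88 ± 0.25, adjusted p = 0.00121). The Junb call in astrocytes was lost without KO2 (0.53, adjusted p = 0.0616) or WT1 (0.48, adjusted p = 0.128), with a range of 5.49e-07 to 0.128 over the alternatives. That of Atf3 was lost without KO3 (-0.84, adjusted p = 0.148), WT1 (adjusted p = 0.0567) or WT3 (adjusted p = 0.0554), with a range of 0.0016 to 0.165. Fos in astrocytes, not called with all libraries (-0.37 ± 0.18, adjusted p = 0.0653), was lower without KO2 (-0.55, adjusted p = 0.00764) or WT1 (-0.51, adjusted p = 0.0174), with a range of 7.15e-05 to 0.378, and stood at 0.25 with at least 500 genes per cell. Egr1 in astrocytes was called lower without WT1 (-0.73). With library sizes alone in place of TMM scaling, which moved the median of all genes by -0.41 in astrocytes and -0.54 in oligodendrocytes, astrocytes had 1 gene higher and 7 lower, and oligodendrocytes 5 higher and 2 lower. Astrocytes also differed between libraries in the median mitochondrial share of their UMIs, 11.7%, 9.28% and 3.78% in KO1, KO2 and KO3, against 7.87%, 6.22% and 6.76% in WT1, WT2 and WT3. Its part in the low sum of KO1 astrocytes, 362 CPM against 769 to 1236 CPM in the other libraries, KO2 and KO3 included, was not tested.

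Classes next to each other in the order of mean levels were also compared. Over the 10 genes, 70 such pairs were tested by a two-sided exact sign-flip permutation test on log2(CPM + 10) over the 6 libraries, whose smallest possible p is 0.03125. None passed after adjustment, the smallest adjusted p being 0.0875, but with 70 pairs adjusted together even the smallest possible p passes only if most pairs reach it, so this says little about the order. By its construction the test reaches that smallest p only when all 6 libraries have the same direction. For Fos, the steps between microglia, OPC, tanycytes and endothelial cells were 0.07 to 0.13 on the log2 scale, with 3 or 4 of the 6 libraries in the direction of the means (exact permutation p = 0.344 to 0.656), so no order is given for these 4. Junb and Egr1 had 4 of 7 steps at the smallest possible p, Jun, Ier2 and Btg2 had 3, and Fos, Fosb, Jund and Atf3 had 2. Nr4a1 had none.

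Within classes, the genes varied between sub-clusters, which are given as a description. The microglial cluster led by C1qb and then Ccl4, a chemokine, carried 37012 CPM summed over the 10 genes (138 cells), against 16974 CPM (191 cells) and 23124 CPM (62 cells) in the other 2 microglial clusters. Of these other clusters, also led by C1qb, the one of 191 cells carried red blood cell markers and the one of 62 cells oligodendrocyte markers. Ccl4 stood among the leading genes of the latter too. Tanycytes led by Scn7a and Col25a1 had 24158 CPM (101 cells) and 36623 CPM (16 cells), against 5427 CPM (168 cells) and 7278 CPM (73 cells) in those led by 6330403K07Rik and Col23a1. Gfap-led astrocytes had 2723 CPM (136 cells), against 494 CPM in the other astrocytes (1505 cells). Endothelial clusters that also carried mural markers averaged 13940 ± 2159 CPM (303 cells), against 10813 ± 2770 CPM in those without (681 cells). The low average of astrocytes thus came from the large majority outside the Gfap-led cluster.

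Neurons, the class in which Fos is used as a mark of activity, were low as a whole but uneven. GABAergic clusters (1920 cells) averaged 2018 ± 742 CPM over the 10 genes and glutamatergic clusters (671 cells) 1043 ± 139 CPM. The GABAergic sum was 1446, 1384 and 3389 CPM in KO1, KO2 and KO3, against 1698, 2226 and 1968 CPM in WT1, WT2 and WT3. It exceeded the glutamatergic sum in every library, with the widest gap in KO3, where glutamatergic neurons had 1074 CPM. The GABAergic clusters included the one led by Npy and Agrp, 136 cells with 6202 CPM. Its part in the difference was not tested, so the higher GABAergic sum is not read as a trait of GABAergic neurons in general.

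Among the 15 neuron clusters, the one led by Npy and Agrp, the peptides of the hunger neurons of the arcuate nucleus, had the highest sum, 6202 CPM over 136 cells. Its libraries stood at 5470, 4524 and 8614 CPM in KO1, KO2 and KO3, against 5648, 5326 and 8514 CPM in WT1, WT2 and WT3. Every library of this cluster exceeded the sum of all neurons in any library, the highest of which was 2548 CPM in KO3. Fos was at 2224 CPM in the cluster and Jun at 1664 CPM. It held 137 of the 202 Atf3 UMIs of all neurons, and Atf3 stood there at 279, 194 and 446 CPM in the KO libraries, against 357, 406 and 489 CPM in the WT libraries. It also held 188 of the 642 neuronal Btg2 UMIs but only 4 UMIs of Nr4a1.

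A small cluster whose highest listed peptides were Avp (115 CPM) and Pmch (57.7 CPM) had the next value, 4558 CPM. These peptide levels are low, against 69692 CPM of Avp in the glutamatergic cluster led by Avp and Oxt, so they give no cell type. Of its 22 cells 19 came from KO2, so the sum is the value of 1 library. The neuron cluster led by Th and Vip, 55 cells, had 2830 CPM and varied widely, with 1365, 1954 and 5966 CPM in the KO libraries, against 1441, 2418 and 5195 CPM in the WT libraries. The glutamatergic cluster led by Avp and Oxt had 2501 CPM. At the low end stood the cluster led by Sst and Tac1 with 370 CPM, of whose 77 cells 37 came from KO2 and none from WT3. The cluster led by Nts and Foxb1, the latter a mark of the mammillary region, had 471 CPM, and that led by Tac1 and Pmch 528 CPM. The clusters were drawn without the 10 genes and the related genes, but the level of other genes that may move with them was used, so no test was made between them.

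**Figure D3:**
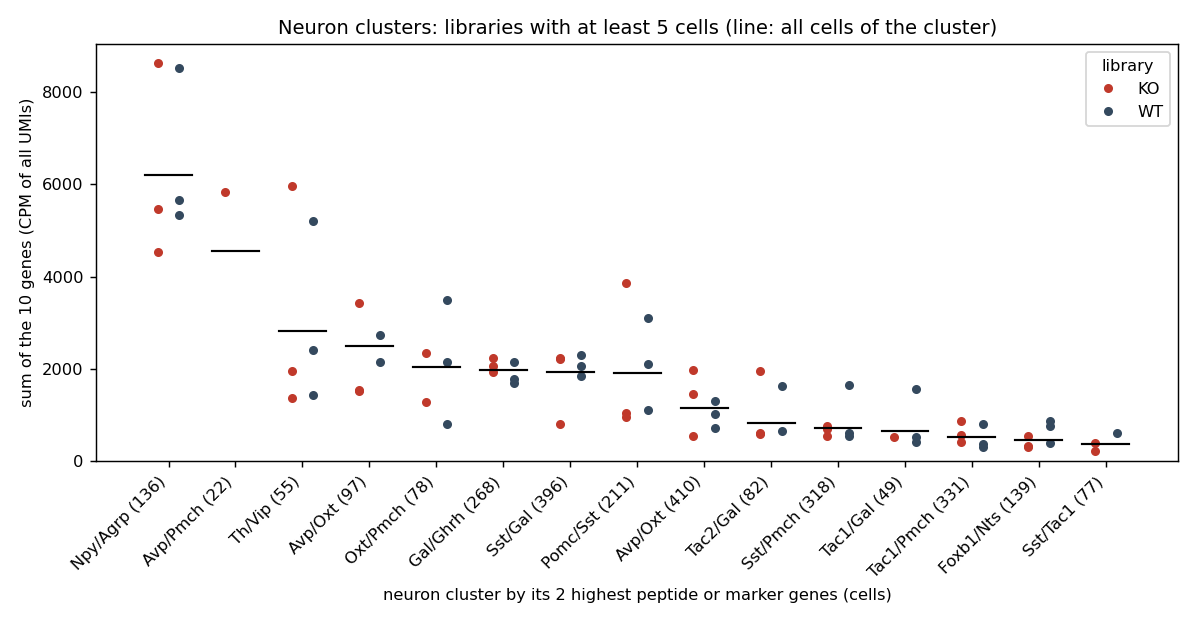
Summed level of the 10 genes in the 15 neuron clusters, in CPM on a linear axis, with 1 point per library that had at least 5 cells in the cluster (KO left in red, WT right in dark grey) and a line at the value of all its cells pooled. The Npy and Agrp cluster lies at 4524 CPM or above in all 6 libraries, while the cluster led by Foxb1 and Nts lies at 875 CPM or below.

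Cells that had a Fos UMI more often had the other members too. At 500 UMIs per cell, Fosb was found in 14.4% of Fos-positive neurons and 4.60% of all neurons, and Jun in 36.1% of Fos-positive neurons and 14.4% of all neurons. In astrocytes Jun was found in 24.1% of Fos-positive cells and 5.81% of all cells. In OPC Fosb was found in 55.8% of Fos-positive cells and 40.2% of all cells, and in microglia Atf3 in 72.3% of Fos-positive cells and 58.6% of all cells. These shares pool the cells of 6 libraries.

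Across the 8 class means, Fos and Fosb were the pair with the most alike profile (Pearson r = 0.984 over 8 classes), and Fosb and Atf3 the least alike (r = 0.593). These coefficients describe 8 points that share libraries and depth, and no test was made. Of 6276 other genes, Dusp1, a phosphatase that switches off MAP kinases, had the profile most like that of Fos (r = 0.926). Klf6, a zinc finger factor, was most like Junb (r = 0.956) and Nr4a1 (r = 0.965), and Maff, a small Maf factor, most like Ier2 (r = 0.943). For Atf3 the nearest was Rnase4 (r = 0.975), for Btg2 Tapbp (r = 0.962), for Egr1 Ppp4c (r = 0.983) and for Jun also Ppp4c (r = 0.950). Fosb was nearest to Srsf7 (r = 0.917) and Jund to Rpl7a (r = 0.945).

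Related gene lists were set against neurons in the same fit, with the shares of all genes called given above. Of 22 other early response genes tested, 22 were higher than in neurons in endothelial cells, 20 in microglia, 20 in tanycytes, 15 in OPC and 7 in the Vip-led cluster, with none lower. Astrocytes had 12 higher and 2 lower and oligodendrocytes 9 higher and 2 lower. The median log2 fold change of the list was 4.82 in microglia, 3.83 in endothelial cells, 2.59 in tanycytes, 1.69 in OPC, 1.28 in astrocytes, 0.63 in oligodendrocytes and 0.26 in the Vip-led cluster. Examples are Zfp36, which binds and destabilises transcripts, with a log2 fold change of 8.61 in microglia, Klf2, a flow-responsive factor, with 8.14 in endothelial cells, Cyr61, a matrix protein, with 9.14 in tanycytes and Dusp1 with 2.39 in the Vip-led cluster. Of 7 genes that feed back on the pathway, Atf3 and Btg2 among them, 7 were higher in endothelial cells and tanycytes, 6 in microglia and 4 in OPC and the Vip-led cluster, with none lower. Oligodendrocytes had 4 higher and 3 lower and astrocytes 3 higher and 2 lower. Medians ran from 0.36 in astrocytes to 4.83 in microglia.

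Heat shock genes, which answer to protein damage, did not share this order. Of 9 tested, none was higher and 9 were lower in OPC, 2 were higher and 6 lower in microglia, and 3 were higher and 6 lower in tanycytes. Endothelial cells had 2 higher, Hspb1 (6.26) among them, and 7 lower, Hsp90aa1 (-2.70) among them. Summed over the list, heat shock genes stood at 2111 to 3940 CPM in microglia, against 7071 to 9363 CPM in neurons. Astrocytes had none higher and 8 lower, oligodendrocytes none and 7, and the Vip-led cluster none and 6. The median was below 0 in every class, from -1.48 in astrocytes to -0.38 in the Vip-led cluster.

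Of 8 tested genes that respond to activity in neurons, 5 were higher and none was lower in the Vip-led cluster than in neurons, among them Gadd45g (2.22), Vgf (1.77) and Npas4 (1.19). Endothelial cells and tanycytes each had 4 higher and 3 lower, microglia and astrocytes 3 and 3, oligodendrocytes 3 and 5, and OPC 1 and 3. Among 12 components of the ERK, SRF and CREB inputs, endothelial cells had 7 higher and 4 lower, microglia 6 and 3, oligodendrocytes 4 and 4, tanycytes 4 and 5, OPC 3 and 3, astrocytes 1 and 5 and the Vip-led cluster 1 and 3. Of 5 other AP-1, ATF and CREB family genes, microglia had 4 higher and 1 lower, endothelial cells 3 and 1, the Vip-led cluster 2 and none, and astrocytes none and 2. OPC, oligodendrocytes and tanycytes had 1 in each direction. The genes of the inputs were thus split in both directions in every class, with medians from -0.65 in tanycytes to 1.11 in microglia. The activity list had its highest median in the Vip-led cluster, 1.48, and its lowest in oligodendrocytes, -2.13.

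Loss of IDOL was set against WT within each class, with 70 tests of a member in a class. No member passed the adjusted threshold in any of the 8 classes or over all cells, by edgeR's quasi-likelihood test or by DESeq2, and 7 of the 70 had an unadjusted p under 0.05 by edgeR. The same adjusted threshold was passed by 0% of genes in all cells, the Vip-led cluster, tanycytes, OPC and endothelial cells, 0.0312% in neurons, 0.0477% in astrocytes, 0.146% in oligodendrocytes and 0.138% in microglia. An unadjusted p under 0.05 was found for 4.77% of genes in neurons, 4.28% in the Vip-led cluster, 4.41% in astrocytes, 4.83% in tanycytes, 6.89% in OPC, 6.61% in oligodendrocytes, 6.74% in microglia, 4.45% in endothelial cells and 2.05% in all cells. In all cells the 10 genes had a median log2 fold change, KO over WT, of 0.08, which ran from -0.15 without WT1 to 0.25 without KO2. Fos averaged 1849 ± 317 CPM in KO libraries and 1835 ± 423 CPM in WT libraries (SD, n = 3 each).

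The lowest p of the 70 was that of Btg2 in tanycytes. It stood at 1124, 644 and 998 CPM in KO1, KO2 and KO3, against 1950, 1761 and 2154 CPM in WT1, WT2 and WT3. The groups did not overlap. Its log2 fold change was -1.09 ± 0.26 (SE; adjusted p = 0.493 over the genes of tanycytes, edgeR). The adjusted p ranged from 0.0252, without KO1, to 1 over the alternatives, and the value without KO1 was -1.31. Btg2 stood at 2550 and 4542 CPM in the tanycyte sub-clusters led by Scn7a and Col25a1, against 447 and 509 CPM in the others. The larger of the former held 22, 18 and 2 of the 64, 65 and 23 tanycytes of KO1, KO2 and KO3. In WT1, WT2 and WT3 that sub-cluster held 37, 15 and 7 of 116, 60 and 30. The part of this mix in the difference was not tested. In other classes Btg2 averaged 96.3 ± 69.9 CPM in KO neurons and 115 ± 26.6 CPM in WT neurons, where it was called only without KO3 (-1.02, adjusted p = 0.0298, in a range of 0.0298 to 1 over the alternatives) and stood at 0.00477 without KO2.

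The other 6 with an unadjusted p under 0.05 (edgeR) were split in direction. Junb in tanycytes had a log2 fold change of -0.70 ± 0.27 (adjusted p = 0.998, edgeR), Ier2 in microglia -0.52 ± 0.23 (adjusted p = 0.617) and Ier2 in astrocytes -0.88 ± 0.43 (adjusted p = 1). Fosb in endothelial cells had 0.68 ± 0.27 (adjusted p = 0.997, edgeR), Fosb in OPC 0.53 ± 0.23 (adjusted p = 0.704) and Atf3 in endothelial cells 0.63 ± 0.29 (adjusted p = 0.997). None of the 6 passed under any alternative, but some values rested on single libraries. Ier2 in astrocytes was at 5.84, 22.9 and 93.9 CPM in KO1, KO2 and KO3, against 89.1, 106 and 65.8 CPM in WT1, WT2 and WT3, so that KO1 and KO2 lay below every WT library and KO3 among them. Its log2 fold change was -2.34 without KO3 (adjusted p = 0.0747, edgeR), -0.53 without KO1 and -0.56 without KO2, with an adjusted p of 0.0747 to 1 over the alternatives. Fosb in endothelial cells stood at 0.39 without WT3 and 1.00 without WT2 (adjusted p of 0.411 to 1 over the alternatives, edgeR), Atf3 in endothelial cells at 0.97 without WT2 (0.575 to 1) and Junb in tanycytes at -0.46 without KO2 (0.433 to 1). The adjusted p ranged from 0.54 to 0.999 for Ier2 in microglia and from 0.589 to 0.999 for Fosb in OPC (edgeR). Fosb in OPC was at 1498 ± 238 CPM in KO libraries and 1060 ± 239 CPM in WT libraries (SD, n = 3 each). The lowest KO library was at 1359 CPM and the highest WT library at 1317 CPM, so these groups did not overlap.

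By class, the median log2 fold change of the members tested was -0.34 in tanycytes, with 9 of 10 lower in KO, and -0.30 in astrocytes, with 7 of 7 lower. It was 0.26 in the Vip-led cluster, 0.06 in endothelial cells, -0.03 in OPC, -0.06 in oligodendrocytes, -0.07 in neurons and -0.09 in microglia. With 1 library left out, the median stayed below 0 in tanycytes (-0.60 without KO1 to -0.13 without KO2) and astrocytes (-0.79 without KO3 to -0.13 without WT1), and above 0 in the Vip-led cluster (0.16 without KO3 to 0.65 without WT3). In the other 5 classes it changed sign. It ran from -0.37 without KO3 to 0.13 without KO2 in neurons, from -0.21 without WT1 to 0.21 without WT3 in OPC, and from -0.51 without KO1 to 0.10 without KO2 in oligodendrocytes. In microglia it ran from -0.28 without WT1 to 0.03 without WT2, and in endothelial cells from -0.01 without WT3 to 0.34 without WT2. These counts and medians hold members of either size of change, take no account of the mix of sub-clusters in a class and carry no test. In the related lists, Sgk1 in oligodendrocytes was the only call of KO against WT within a class (-1.29 ± 0.24, adjusted p = 0.0205, edgeR). Sgk1 is a kinase induced by glucocorticoids and osmotic stress.

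**Figure D4:**
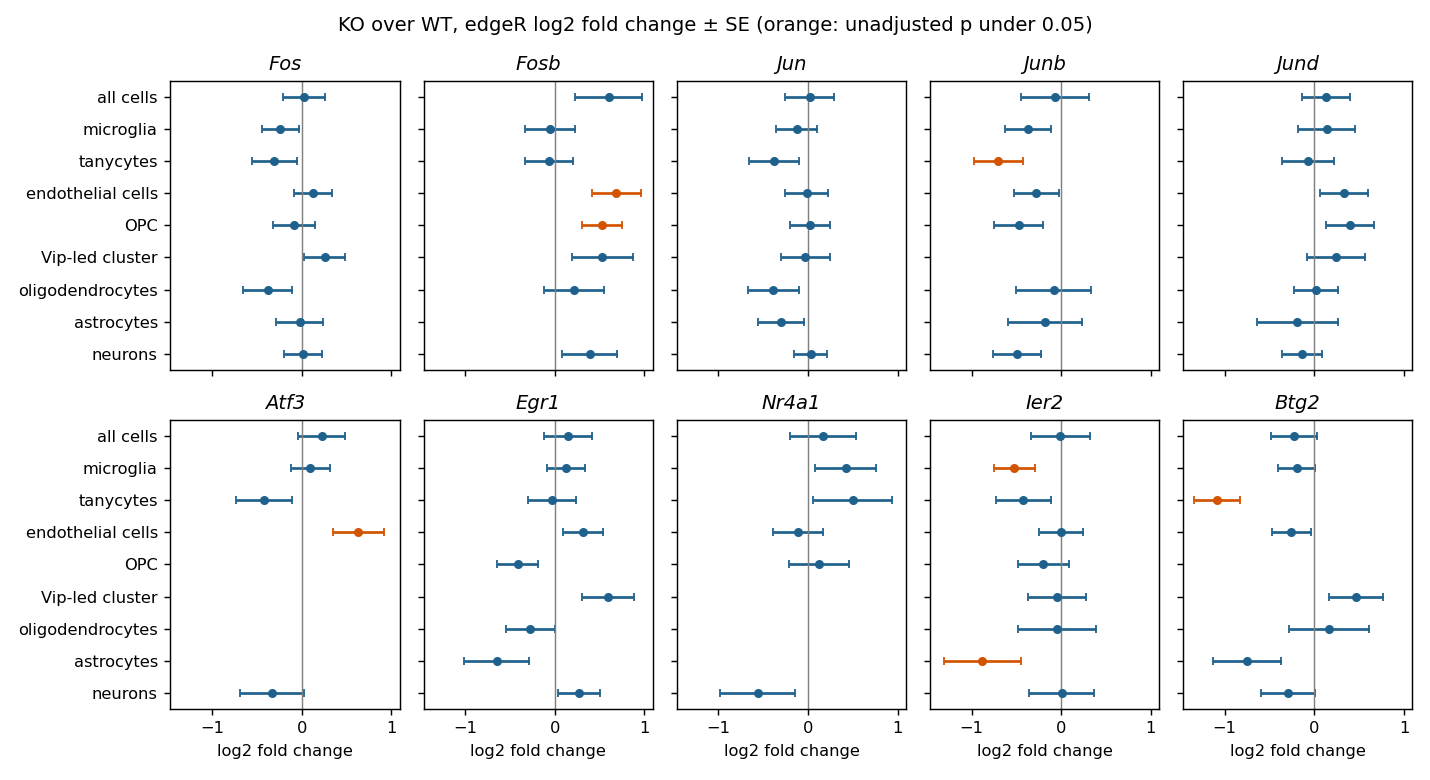
Log2 fold change, KO over WT, of each gene in all cells and in the 8 tested classes, with bars of 1 SE from edgeR and orange where the unadjusted p was under 0.05. Values lie on both sides of 0, and the lowest orange point is Btg2 in tanycytes at -1.09.

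Whether the KO difference itself varied between classes was tested as a genotype by class interaction, with library as a block. None of the 10 members passed, against 0.194% of all genes (edgeR, 6687 genes, 3.87% at an unadjusted p under 0.05). Btg2 had the lowest adjusted p, 0.144, followed by Atf3 with an adjusted p of 0.702 and Egr1 with an adjusted p of 0.855 (edgeR). The outcome turned on single libraries, as without KO3 both Atf3 (adjusted p = 1.73e-05) and Btg2 (adjusted p = 6.61e-05) passed, and without WT2 Btg2 did (adjusted p = 0.0248). Over all alternatives the adjusted p of Btg2 lay between 6.61e-05 and 1 and that of Atf3 between 1.73e-05 and 1. Neurons of KO3 had the highest sum of the 10 genes of any neuron library, 2548 CPM, and KO3 also had the lowest median mitochondrial share over all cells, 2.72%, against 6.98% in KO1. The part of KO3 in the interaction beyond these values was not tested. Of the related genes, only Gadd45g, of the activity list, passed the interaction with all libraries (adjusted p = 0.0402, edgeR). Its log2 fold change, KO over WT, was -0.71 in tanycytes, -0.60 in astrocytes and 0.38 in the Vip-led cluster, none of them called.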

How the data were processed

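Drop-seq UMI counts of 6 hypothalamus libraries (3 IDOL KO, 3 WT) were used as deposited by the authors, 1 whole-number count per gene and barcode. Per the submitters' processing notes, bcl2fastq, STAR 2.5.0c and the mm10 and GRCm38 builds were used. The counting program, annotation and strand are not given in the sources used here. Of the symbols, 93.9% matched GENCODE M21, the 10 members included.

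Cells with at least 300 genes and at most 20% mitochondrial UMIs were kept. Of 13994 barcodes, 3965 had fewer genes, 1247 had more mitochondrial UMIs and 9449 passed both limits. Scrublet in scanpy 1.11.5 (expected rate 5%, per library) removed 116 doublets, 1.23% of passing cells. Only 6 barcodes of the unfiltered table occurred in more than 1 library. Leiden clustering (2000 variable genes, 30 components, 15 neighbours, resolution 1) left out the 10 members and 80 related genes, so that no class was drawn with the genes compared. It gave 25 clusters, of which 9 with mixed markers were split again (1000 genes, 10 components, resolution 0.5), 43 in the end. To be named, a cluster had to hold 3 of a type's markers 4-fold above the median over clusters and reach a scaled marker score of 0.5 on average. The scoring was chosen after looking at the cells.

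UMIs were summed per library for each class that reached 20 cells in all libraries, and tested with edgeR 4.0.16 (filterByExpr, TMM, quasi-likelihood, default settings) under R 4.3.3, at an adjusted p of 0.05. Class contrasts were fitted in 1 model with library as a block. Class means are mean ± SD of libraries, and fold changes are ± SE. Shares at 500 UMIs are the expected shares after thinning, shallower cells left out. DESeq2 1.42.0 served as an alternative. The tests were tried on simulated data. Replicate numbers of KO and WT libraries come from the titles only. All 10 members are named in every class, and of the related lists up to 4 genes with the smallest p. The members and lists were chosen with earlier results of these data known.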

Additional observations from a re-analysis of the deposited data

How the results depend on the processing

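Every setting kept the count of members called between KO and WT at 0, except that 1 was called in neurons and in tanycytes with 1 library left out each (range 0 to 1, both Btg2). The interaction called 1 member with no gene filter and 0 to 2 with 1 library left out. Against neurons, astrocytes had 1 member higher without TMM (1 to 2 with 1 library left out) and 7 lower without TMM or with no gene filter, 2 lower with at least 500 genes per cell (3 to 5 with 1 library left out). Oligodendrocytes had 1 lower with DESeq2 or robust settings (1 to 2), and OPC 1 lower with no gene filter (0 to 1). The other 182 counts against neurons stayed within 1.5 times the main count. Of single values, Btg2 in neurons, KO over WT, ran from -1.02 to 0.00477 with 1 library left out, the highest without KO2. In the Vip-led cluster over neurons, Atf3 ran from -0.38 to 1.03 and Junb from -0.54 to 0.42, both lowest without KO1. With at least 500 genes per cell, Atf3 in the Vip-led cluster stood at -1.22 and Fos in astrocytes at 0.25, and microglia and tanycytes had too few cells for a value. The median of the members, KO over WT, stood at -0.00444 in astrocytes and 0.34 in endothelial cells with at least 500 genes per cell, and at 0.55 in the Vip-led cluster with no gene filter. The cause of these changes was not tested. Of 80 comparisons of shares, 50 moved by more than 1 SD with 1000 or all UMIs per cell in place of 500. With a replicate block the count was 0 in every class, as without it. The deviations of same-numbered KO and WT libraries correlated at 0.298, -0.174 and 0.297 over 11871 genes. Those of differently numbered libraries ran from -0.446 (KO1 and WT3) to 0.207 (KO1 and WT2). With so few pairs, these values cannot decide whether the numbers pair the libraries. Endothelial clusters without mural markers, added after the data were seen, gave the same counts. Depth limits Atf3, Nr4a1 and Btg2 where a library held 0 UMIs of them in a tested class.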

Other observations

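Among classes too small to test, fibroblasts, the matrix-producing cells of the meninges and vessel sheaths, carried the 10 genes at 19596 ± 10166 CPM (SD, n = 6 libraries), but 1 library had 4 such cells and libraries ranged from 1942 to 29556 CPM. Their mean was above that of every tested class for Fos (5601 ± 2759 CPM), Fosb (1725 ± 988 CPM), Ier2 (1747 ± 1061 CPM) and Jund (607 ± 526 CPM). Mural cells, which wrap vessels, averaged 13773 ± 3254 CPM, with 18137 CPM in the cluster led by Acta2, a smooth muscle gene (124 cells), and 4610 CPM in that led by Rgs5, a pericyte gene (64 cells). Nr4a1 in mural cells, 597 ± 323 CPM, was above the mean of every tested class. Ependymal cells averaged 7915 ± 1696 CPM. Their Nr4a1 level, 290 ± 111 CPM, stood beside 141 ± 97.6 CPM in tanycytes, which line the same ventricle.

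Newly formed oligodendrocytes, 93 cells, averaged 4822 ± 1087 CPM, between OPC (12284 ± 2306 CPM) and oligodendrocytes (2479 ± 889 CPM). Within them the cluster led by Gpr17, a gene of the earlier stage, had 6251 CPM (66 cells) and that led by Enpp6 2427 CPM (27 cells). Jun averaged 2143 ± 598 CPM in newly formed oligodendrocytes and Junb 27.9 ± 25.1 CPM. Atf3 was found in 0 of 93 of these cells, which allows a share of up to 3.23%. An unnamed cluster led by Lyz2 and Pf4, genes of macrophages, had 20349 CPM (65 cells), and another led by Cd74, a gene of antigen-presenting cells, 17393 CPM (47 cells). None of these values was tested.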
